A study of Drosophila melanogaster with 3 samples.

Results

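Of the 9789 peaks of the CG2712 protein in fly embryos in the authors' list named for the irreproducible discovery rate (IDR, how well ranks repeat between replicates), 1724 (17.6%) had their summit in DNA between genes and away from every gene start. All 9789 were also the 9789 strongest of the list called on the replicates together, so the list does not show that each peak repeated, and 129 of the 1724 had no overlapping peak in at least 1 replicate list. The intergenic peaks were chosen by position alone: the summit lay more than 500 bp from each annotated transcript start and outside each annotated gene (Ensembl release 115, build dm6, transposable elements not counted as genes). Of the other peaks, 4516 had the summit within 500 bp of a start (promoter peaks below) and 3549 inside a gene beyond that distance (gene body peaks). The measurement was chromatin immunoprecipitation with sequencing (ChIP-seq), in which an antibody pulls down a protein with the DNA attached to it, so that reads pile up where the protein was. The 3 biological replicates were all of 1 kind, with no second group to set against them: whole Drosophila melanogaster embryos of both sexes, collected between 0 and 16 hours of age, from a stable transgenic line in which CG2712 carries green fluorescent protein (GFP) at its C terminus. The antibody recognised GFP, and 1 control file was used in calling the peaks. The line is 1 insertion, and the embryos mix all tissues and many stages, so a peak does not say in which cells the tagged protein was bound. Read depth is unknown.

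CG2712 encodes a protein with zinc finger repeats, a fold that often contacts DNA. In the fly, DNA between genes and away from promoters holds enhancers, which raise transcription of a gene at a distance, and also silencers and insulators, which Polycomb group and architectural proteins occupy. A ChIP-seq peak locates a protein but does not show which gene, if any, a distant site acts on, so genes are named here by position only.

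The DNA under the summits was rich in A and T, and the sequences of 5 of the 8 strongest intergenic peaks are given to show how far this held in single peaks. Each is 121 bases of the plus strand of the RefSeq dm6 sequence, centred on the summit, with the longest run made only of A and T in capitals.
COX7AL2 and CG31668, chr2L:2202353-2202473, plus strand: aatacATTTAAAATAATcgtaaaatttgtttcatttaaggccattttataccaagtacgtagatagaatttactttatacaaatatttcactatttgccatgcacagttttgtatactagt
CG43131 and RabGGTa, chr3R:5113210-5113330, plus strand: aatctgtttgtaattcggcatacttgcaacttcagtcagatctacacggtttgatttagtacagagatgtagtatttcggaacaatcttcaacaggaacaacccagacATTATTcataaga
upstream of tara, chr3R:16222445-16222565, plus strand: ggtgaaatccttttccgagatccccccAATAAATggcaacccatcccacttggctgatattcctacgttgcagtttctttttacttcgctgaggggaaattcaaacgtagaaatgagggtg
RasGAP1 and CG10809, chr3L:9855892-9856012, plus strand: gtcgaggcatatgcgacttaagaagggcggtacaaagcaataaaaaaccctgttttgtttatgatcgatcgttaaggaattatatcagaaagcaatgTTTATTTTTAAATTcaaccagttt
Sol1 and Cyp9f2, chr3R:12403076-12403196, plus strand: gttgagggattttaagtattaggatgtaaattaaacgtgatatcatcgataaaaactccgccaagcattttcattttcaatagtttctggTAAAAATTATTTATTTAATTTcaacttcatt
The longest run spanned 21 bases at the peak between Sol1 and Cyp9f2, 14 bases beside RasGAP1 and 12 bases between COX7AL2 and CG31668. The peaks beside CG43131 and upstream of tara had runs of 6 and 7 bases and more G and C near the summit (38.6% and 44.6% of the 101 central bases, against 23.8% to 30.7% in the other 3). Strong intergenic peaks were thus not all alike in sequence.

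A further set of intergenic summits lay on the same side of a short word, CACTGAGA, which is described with its values further on. Shown here are 6 strong intergenic peaks that held the word within 100 bp of the summit, written in the direction in which the word reads CACTGAGA, with the word in capitals and 20 bases to each side.
slp1 and slp2, chr2L:3832563-3832610, minus strand: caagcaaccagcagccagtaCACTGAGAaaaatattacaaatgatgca
lncRNA:CR44711 and GCS2alpha, chrX:21593979-21594026, plus strand: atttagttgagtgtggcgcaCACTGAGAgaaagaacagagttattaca
CG10357 and CG14974, chr3L:3617328-3617375, plus strand: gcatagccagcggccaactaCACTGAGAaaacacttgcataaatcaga
CG7320 and lncRNA:CR45935, chr3L:18204174-18204221, minus strand: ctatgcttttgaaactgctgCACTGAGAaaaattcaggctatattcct
CG43401 and CG43402, chr2L:1433957-1434004, minus strand: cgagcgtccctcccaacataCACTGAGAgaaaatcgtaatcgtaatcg
CG43245 and lncRNA:CR44544, chr3L:10783362-10783409, plus strand: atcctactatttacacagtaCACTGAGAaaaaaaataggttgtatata
In each of the 6, the word was followed by A or G and then by at least 2 A.

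**Figure D1:**
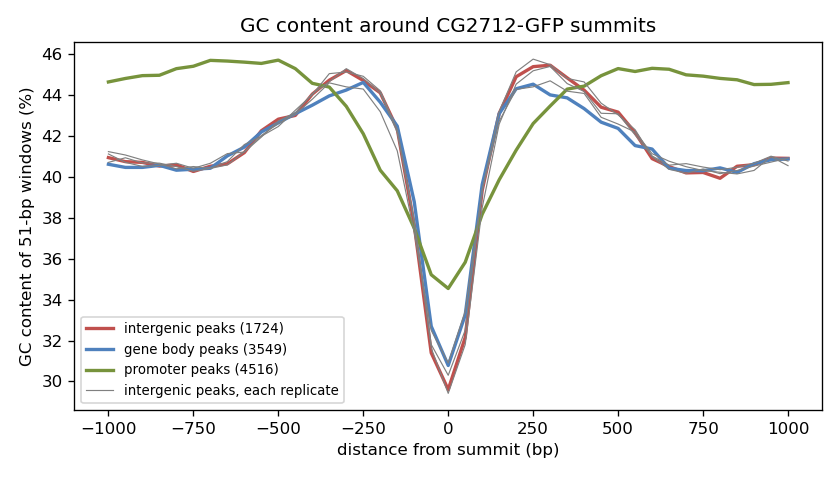
GC content of 51-bp windows (vertical axis, %) by distance from the summit (horizontal axis, bp) for intergenic, gene body and promoter peaks of the IDR list, with thin grey lines for the intergenic peaks of each replicate. The intergenic line has the deepest trough, 29.6% at the summit, and rises to 45.2% and 45.5% at 300 bp on the left and right, above the 40.7% of all bases where such a peak could lie.

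The strongest intergenic peaks included places beside Polycomb group genes and developmental regulators. The highest deposited signal (the caller's enrichment at the peak, the authors' own value) was 6648, between the COX7AL2, a gene like those of a cytochrome oxidase subunit, and CG31668 (2L, 2202127 to 2202676), rank 28 of all 9789 peaks. Its signal was 1503, 3008 and 2178 in replicates 1, 2 and 3, with ranks 37, 19 and 24 in those lists. Replicate lists differ in the scale of the signal, so that ranks, and not signals, can be set side by side across them.

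The peaks next in strength lay on 2R in gaps beside the neighbouring genes Su(z)2 and Psc, both of the Polycomb group, which keeps developmental genes silent. One lay between Su(z)2 and CG13323 (2R, 13035099 to 13035589, signal 5697), with ranks 57, 32 and 37 in the replicates. Its nearest start was that of CG13323, 11925 bp away, in a gap of 36783 bp. Between CG13321 and Psc were 2 peaks, with signals of 5570 (2R, 12957932 to 12958532; ranks 38, 42 and 47) and 3983 (2R, 12959033 to 12959690; ranks 90, 118 and 98). Another lay between the duplicated Polycomb group genes ph-d and ph-p (X, 2123833 to 2124476, signal 3752; ranks 108, 133 and 105). All 4 kept a rank within 150 in each replicate. This group of genes was picked out after the values were seen.

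Of the 25 strongest intergenic peaks, 12 lay in gaps between genes that point the same way, 8 between convergent and 5 between divergent genes. Of all 1724, the counts were 874, 379 and 470. Among the 25, 8 lay over 5000 bp from any start. Of all 1724, 21.2% lay at 5 to 10 kb, 10.3% at 10 to 20 kb and 3.31% at 20 to 50 kb. A difference between the 25 and the rest was not tested. A signal of 4448 was found upstream of tara, which encodes a transcriptional regulator that interacts with the trithorax group (3R, 16221622 to 16222727; ranks 84, 79 and 82), and 3850 nearer to the same gene (3R, 16224289 to 16224749; ranks 153, 96 and 107). The gap between slp1 and slp2, a pair of Fork head genes of segmentation, held a signal of 3354 (2L, 3832285 to 3832738; ranks 172, 140 and 154). The zinc finger gene chinmo, which sets temporal identity in neurons, was the nearest protein-coding start, 12469 and 7825 bp away, of peaks with signals of 3589 and 2795. The Fork head gene bin of the visceral mesoderm had the last of the 25, 1301 bp from its start (3L, 6989053 to 6989591, signal 2676).

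The others of the 25 lay beside genes of varied kinds. Among these were CycB, which encodes cyclin B (signal 5110), and the gap of CG43131 and RabGGTa (4989, with the start of CG43131 nearest). RasGAP1, which encodes a GTPase-activating protein of Ras (4202), and the gap of Sol1 and Cyp9f2 (4023) were others. CG43245 was nearest to signals of 3846 and 2696, CG33453 to 3559, CG10479 to 3515, CG7560 to 3105 and the rhodopsin gene Rh5 to 3097. CG42807 (2953), lncRNA:CR45411 (2844), CG5103 (2780) and lncRNA:CR45737 in a gap beside sty (2728), which encodes the receptor tyrosine kinase antagonist Sprouty, complete them. In replicate 1 their ranks ran from 37 to 333, in replicate 2 from 19 to 273 and in replicate 3 from 24 to 283, so that all 25 were among the 500 strongest peaks of each replicate.

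Intergenic peaks were on average weaker than promoter peaks, and they thinned out at the top of the list. They made up 9 of the 100 strongest peaks and 11.1% of the strongest of 10 groups of equal size by signal, against 15.7% to 21.2% in the other 9 groups. Their median signal was 402 (206 to 6648), that of promoter peaks 419 (206 to 40613) and that of gene body peaks 406 (206 to 10387). Mean log2 signal at intergenic peaks minus that at promoter peaks was -0.34, -0.15 and -0.29 in replicates 1, 2 and 3, a mean of -0.26 ± 0.10 (SD, n = 3), lower in 3 of 3 replicates (two-sided exact sign-flip permutation test, p = 0.25). With 3 replicates this test cannot go below 0.25, so that it cannot pass a threshold of 0.05 for any value here, and a p of 0.25 says only that all 3 replicates had the same direction. With promoters ended at 250 bp the difference was -0.15. Just outside the limit of 500 bp, 77 peaks at 501 to 600 bp had a median signal of 467 (207 to 3515), and just inside it, 84 peaks at 401 to 500 bp outside genes had 412 (206 to 2709).

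Most intergenic peaks were found again in each replicate. A peak among the 9789 strongest of the replicate overlapped 89.2%, 88.0% and 80.9% of them in replicates 1, 2 and 3 (mean 86.0% ± 4.51, SD, n = 3), and all 3 did for 1188 of 1724 (68.9%, exact Clopper-Pearson 95% interval 66.7 to 71.1). Promoter peaks gave 84.8%, 88.5% and 91.1%. The difference therefore had no constant direction, at 4.45, -0.54 and -10.3 percentage points (mean -2.12 ± 7.49, exact sign-flip permutation p = 0.75). It turned to 1.95 without replicate 3 and was -5.41 without replicate 1. The IDR list was made from these replicates, so recovery in them is not independent of it. Intergenic peaks were also narrower, with a median width of 322 bp against 409 bp at promoters.

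The density of intergenic peaks fell with distance from the nearest start, although the rule had already taken out the promoters themselves. The bases where such a peak could lie came to 38.6 Mb, 28.2% of the assembled bases, and held 44.7 peaks per Mb. The share of all listed peaks that were intergenic was 0.625 of that share of bases, and 0.686, 0.598 and 0.561 in the replicates. It was 0.714 in the whole pooled list. Part of this moved with how much of the sequence is unique, that is, lies in a 50-base stretch that occurs once on the arms. With only unique bases counted as open to an intergenic peak, still out of all assembled bases, the value was 0.850 (0.932, 0.814 and 0.763 in the replicates). Repeated bases stayed in that total, so the value is higher than one with only unique bases in both counts. From 501 to 1000 bp from a start there were 97.9 intergenic peaks per Mb (281 peaks), and the replicates gave 109, 89.8 and 83.9. The density was 67.9 at 1 to 2 kb, 57.6 at 2 to 5 kb, 49.7 at 5 to 10 kb, 34.1 at 10 to 20 kb and 14.0 at 20 to 50 kb. Each replicate fell in the same order over these 6 ranges of distance. Beyond 50 kb no IDR peak lay in 5.29 Mb, and a count of 0 allows up to 0.567 per Mb, or up to 2.34 per Mb over the 1.28 Mb of unique bases there. The median distance was 3310 bp.

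**Figure D2:**
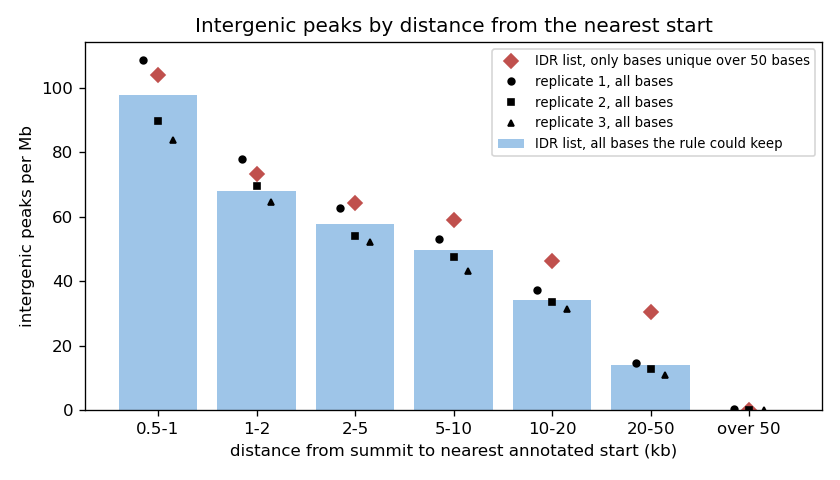
Intergenic peaks per Mb (vertical axis) by distance from the summit to the nearest annotated start (horizontal axis, kb), as bars for the IDR list, black symbols for each replicate's 9789 strongest peaks and red diamonds for the IDR list over unique bases. Bars fall from 97.9 to 14.0 per Mb up to 50 kb and to 0 beyond; the red diamonds fall less, from 104 to 30.6.

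The density up to 2 kb was 4.93 times that beyond 10 kb, and 5.15, 4.97 and 5.06 times in the replicates (mean 5.06 ± 0.09, SD, n = 3; exact sign-flip permutation p = 0.25). Part of the fall moved with how much of the sequence is unique. Only 73.5% of the bases lie in a 50-base stretch that occurs once on the arms, and counted over those the ratio was 2.54, with 30.6 peaks per Mb at 20 to 50 kb. With protein-coding genes alone as genes and starts the ratio was 3.10. The comparison over unique bases was chosen after seeing the data.

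The farthest intergenic peak lay 43221 bp from any start, in a gap of 113115 bp between CG10651 and lncRNA:CR40341 (2L, 20204667 to 20204975, signal 1166), and was found at ranks 1377, 1120 and 1264 in the replicates. Its summit fell in an annotated copy of the transposable element H. Only 5 of the 1724 summits (0.290%) lay in element copies, although such copies make up 10.6% of the bases where an intergenic peak could lie and 3.91% of the unique ones. The ratio was 0.027 over all bases, 0.035 ± 0.005 in the replicates (SD, n = 3; exact sign-flip permutation p = 0.25) and 0.074 over unique bases. In the whole pooled list of 30000 peaks it was 0.083, and with promoters ended at 250 bp 0.047. The other 4 lay in 3 copies of INE-1, 1 of them overlapping another element, and in a copy of HB.

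Gaps between divergent genes were richer in intergenic peaks than gaps between convergent ones. The density was 61.8 per Mb in divergent gaps (470 peaks), 44.6 in tandem gaps (874) and 37.7 in convergent gaps (379). In replicates 1, 2 and 3 divergent gaps had 66.7, 60.2 and 53.9 per Mb and convergent gaps 42.4, 35.4 and 36.1, with no overlap between these 2 kinds. Tandem gaps had 48.7, 42.6 and 39.4, which overlapped the convergent values. The ratio was 1.64, and 1.59 ± 0.10 over the replicates (exact sign-flip permutation p = 0.25). Over unique bases it was 1.39, and 1.33, 1.44 and 1.27 in the replicates. Counted from the nearest protein-coding start, 1116 peaks (64.7%) lay upstream of it, at 48.8 per Mb, and 608 downstream, at 38.6 per Mb. Divergent gaps have a start at both ends, and the share of the orientation in the fall with distance was not tested.

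Across the arms, 3L had the highest density and 2R the lowest among the long arms. There were 62.4 intergenic peaks per Mb on 3L (replicate mean 60.5 ± 4.70, SD, n = 3), 55.1 on 2L (55.0 ± 5.96), 46.2 on 3R (46.7 ± 5.84), 40.4 on X (37.9 ± 6.46) and 29.1 on 2R (28.8 ± 2.24). Over unique bases the order of the ends stayed, with 83.4 on 3L and 44.0 on 2R, and X (53.9) lay close to 3R (54.7). X stood at 0.829 of the 4 long autosomal arms, 0.848, 0.761 and 0.741 in the replicates (exact sign-flip permutation p = 0.25). The small chromosome 4 held 12 peaks, at 48.9 per Mb. The Y held 0 in 2.34 Mb, which allows up to 1.28 per Mb over all these bases. Only 0.497 Mb of them was unique, and over those alone the limit is higher.

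Many gaps held more than 1 intergenic peak. Of 6615 gaps in which the rule could keep a base, which differ widely in length, 886 held at least 1, and 359 gaps with 2 or more held 1197 of the 1724. The 65 gaps with 5 or more held 428. Of intergenic peaks, 58.9% had another within 5000 bp, close to the 57.9% of promoter peaks with another promoter peak in that distance. The difference was 1.20, 3.28 and -2.46 percentage points in the replicates (exact sign-flip permutation p = 0.75) and changed with the distance. Within 2000 bp it was 5.38, 8.29 and 2.14 points in the replicates (36.5% against 29.1% in the IDR list). Within 10000 bp it was -3.16, -0.92 and -6.60. These shares do not allow for the unlike numbers of the 2 classes (1724 and 4516), so they cannot decide whether intergenic peaks gather more than promoter peaks.

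**Figure D3:**
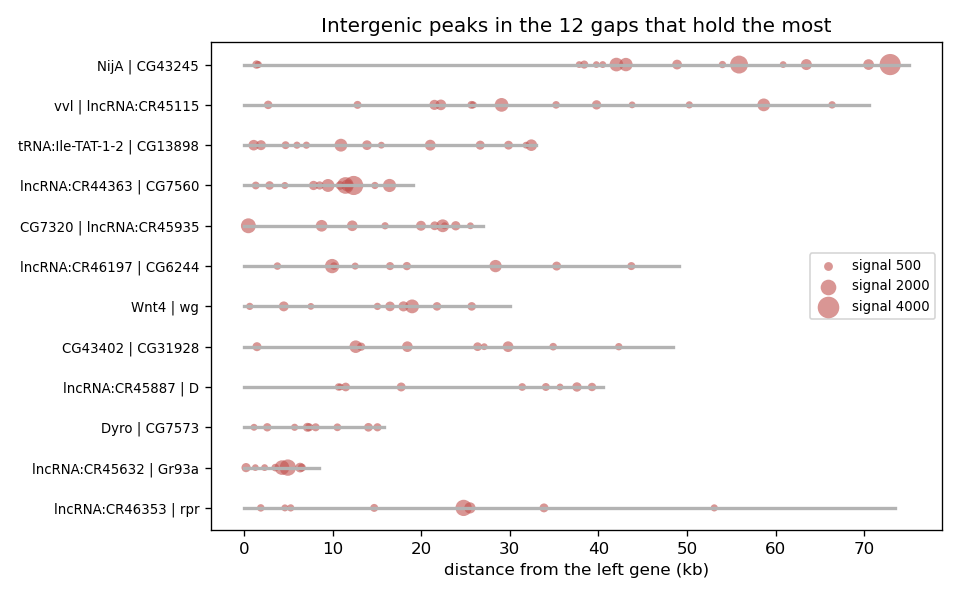
Position of each intergenic peak, as distance from the left gene (horizontal axis, kb), in the 12 gaps between genes (rows, named by their left and right gene) that held the most. The area of a point grows with the deposited signal; peaks in the NijA and CG43245 gap lie mostly in the part away from NijA, with the strongest (3846) near CG43245.

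The gap with the most was that between NijA, which encodes a ninjurin, and CG43245 (75.0 kb on 3L), with 15 intergenic peaks in the IDR list and 15, 14 and 13 in the replicates. The gap between vvl, which encodes a POU-domain regulator of tracheal and neural development, and lncRNA:CR45115 held 13 (13, 14 and 12 in the replicates), with signals from 221 to 1501. The gap between Wnt4 and wg, which encode Wnt ligands, held 9 in 29.99 kb (9, 8 and 8). The gap beside D, which encodes the Sox protein Dichaete, held 9 (8, 8 and 7), the highest of them at a signal of 595. All 4 gaps thus held similar numbers in each replicate.

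Others lay beside genes of less known roles. The gap of tRNA:Ile-TAT-1-2 and CG13898 held 13, that of lncRNA:CR44363 and CG7560 12, and that of CG7320 and lncRNA:CR45935 10. The gaps of lncRNA:CR46197 and CG6244, of CG43402 and CG31928, and of Dyro and CG7573 held 9 each. Among the gaps with 8, ordered by their strongest peak, came first the gap of lncRNA:CR45632 and the gustatory receptor gene Gr93a, the densest of the 12 at 1024 per Mb (8 peaks in 8.42 kb; 7, 8 and 8 in the replicates), and the gap of lncRNA:CR46353 and the cell death gene rpr (8, 7 and 6).

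Around intergenic summits the GC content fell sharply within about 100 bp. It was 30.2% within 50 bp of the summit and 45.2% in windows of the same size centred 300 bp away. In replicates 1, 2 and 3 the summit value was 29.9%, 30.6% and 31.5% and the flank value 45.1%, 45.3% and 44.5%, so that the 2 sets did not overlap. The difference was -15.0 percentage points in the IDR list and -14.3 ± 1.15 over the replicates (exact sign-flip permutation p = 0.25). Promoter peaks went from 43.5% to 34.8%, a difference of 8.71 points, and gene body peaks from 44.2% to 31.2%. In replicate 1 promoter peaks went from 43.5% to 33.5%, the largest promoter difference of the 3. In replicates 2 and 3 the promoter difference was 8.30 and 7.38 points and the intergenic one 14.7 and 13.01. Over all 3 the means were 8.56 ± 1.33 and 14.3 ± 1.15. With flanks at 300 bp the intergenic difference was the greater in 3 of 3, but its excess was smaller with flanks farther out. In 51-bp windows 1000 bp to the left and right, GC content was 40.95% and 40.92% at intergenic peaks. At promoter peaks it was 44.66% and 44.62% there. The intergenic and promoter summits had 29.6% and 34.5%. Against flanks at 1000 bp the intergenic difference was -10.7 points. The contrast with promoters at that distance was not tested in the replicates.

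The fall was present in weak and strong intergenic peaks, at 17.7 points in the 100 strongest and 11.2 in the 100 weakest. In the whole pooled list the difference was -8.19 points. The longest run of A and T within 50 bp of the summit had a median of 11 bases, against 7 in the flanks.

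Counted peak by peak, 1233 intergenic peaks (71.5%) had a GC content within 50 bp that was at least 10 points under that of the flanks, against 18.8% of unique bases where a peak could lie. The share was 71.6%, 68.7% and 63.7% in the replicates (mean 68.0% ± 3.98, SD, n = 3), 64.8% in gene body peaks and 47.98% in promoter peaks. It was 20 of the 25 strongest intergenic peaks. These shares rest on flanks at 300 bp, and with flanks at 1000 bp the intergenic share was 54.8%. The density of intergenic peaks rose with the depth of the dip, from 16.7 per Mb where the summit was not below the flanks to 97.3 per Mb at dips of 10 to 15 points and 630 per Mb at 25 points or more. This count was added after seeing the data.

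Words rich in A and T were more frequent at intergenic summits than 300 bp away, and several with more G and C less so. Of 15 words searched on both strands within 50 bp of the summit, 7 were more frequent there than in the flanks in 3 of 3 replicates and 5 less frequent (exact sign-flip permutation p = 0.25 for each, 0.312 after Benjamini-Hochberg adjustment over the 15). The TATA box word TATAAA was in 28.9% of intergenic peaks against 8.44% in the flanks (replicates 27.6% ± 1.29 against 9.09% ± 0.50). The homeodomain core TAATTA was in 12.1% against 5.89%, and the GATA factor word AGATAA in 9.40% against 4.70%. These ratios depend on the flank, since GC content was highest about 300 bp from the summit. With flanks at 1000 bp the ratio of summits to flanks was 2.13 in place of 3.43 for TATAAA. It was 1.51 in place of 2.05 for TAATTA and 1.63 in place of 2.00 for AGATAA. Words may overlap each other where they share letters, and the share of the base composition in these counts was not tested.

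The words of Polycomb-associated and GAGA factors were rarer at the summits. GAGAG, which the GAGA factor binds, was in 6.61% against 12.6% in the flanks, and GCCAT, the core of the Pleiohomeotic site, in 12.1% against 21.7%. The repeat CACACACA was in 0.928% against 4.06%, the E-box CAGCTG in 1.51% against 3.60%, and GAGAGAGA in 0.522% against 0.638%. Among the words that were more frequent, the CTCF core AGGTGGCG was in 0.986% of intergenic peaks against 0.290% in the flanks, and is not rich in A and T. With shares this small, its ratio rests on few peaks. The Su(Hw) core TGCATA was in 8.93% against 6.70% and AAAAAAAA in 6.84% against 5.45%. With flanks at 1000 bp the ratio of summits to flanks came nearer to 1 for CACACACA (0.438 in place of 0.229) but not for AGGTGGCG (4.25 in place of 3.40). In the whole pooled list the ratio of summits to flanks lay nearer to 1 for several words, at 1.68 in place of 3.40 for AGGTGGCG, 2.27 in place of 5.33 for TATCGATA, 2.11 in place of 3.43 for TATAAA, 0.548 in place of 0.229 for CACACACA, 0.677 in place of 0.419 for CAGCTG and 0.793 in place of 0.524 for GAGAG.

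Words of promoter architecture were less frequent at intergenic than at promoter summits. CGATA, the core bound by BEAF-32, was in 24.98% of promoter summits and 9.86% of intergenic ones, where the flanks had 10.03%. TATCGATA, the DNA replication-related element, was in 5.29% of promoter and 0.464% of intergenic summits (replicate means 4.75% ± 0.41 and 0.509% ± 0.13), and GTCACACT, the motif of M1BP, in 2.70% and 0.290%. In both classes TATCGATA was more frequent at the summit than in the flanks, 6.46 times at promoter and 5.33 times at intergenic peaks. The intergenic flanks had it in 0.087%, and with shares this small the intergenic ratio rests on few peaks. That ratio was 1.20 with promoters ended at 250 bp. At intergenic peaks CGATA, GTCACACT and the Zelda word CAGGTA (1.86% against 1.77% in the flanks) had no common direction in the replicates. A match to these letters is a description and not a site.

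A ranking of all words of 8 bases brought out CACTGAGA. The word had been noticed in earlier rankings of these same peaks on all arms, so what follows is a description of it with no test. Among 1652 words found within 100 bp of at least 2% of the 929 intergenic summits on 2L and 3L, it had the highest ratio to the flanks, with 8.07% of those peaks against 0.431% in windows centred 500 bp away. On the other arms it was in 7.04% of 795 peaks against 0.881%. Of the 10 words with the highest ratio, 8 shared a run of at least 5 bases with it, itself included, and all 10 were more frequent at summits than in flanks on the other arms too.

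In all, 131 of 1724 intergenic peaks (7.60%, exact interval 6.39 to 8.95) had CACTGAGA within 100 bp of the summit, on either strand, against 0.638% in the flanks and 0.777% of unique bases where an intergenic peak could lie. The replicates had 7.94%, 7.15% and 5.82% against 0.741%, 0.515% and 0.485%. Gene body peaks had it in 5.21% and promoter peaks in 1.35% (1.38%, 1.32% and 1.33% in the replicates, below the intergenic share in 3 of 3). The 250 strongest intergenic peaks had it in 13.2% and the 250 weakest in 4.80%, but of the 25 strongest only 1 had it within 200 bp. Mean log2 signal was higher in intergenic peaks with the word by 0.18, 0.19 and 0.12 in replicates 1, 2 and 3 (mean 0.16 ± 0.03, SD, n = 3). In the whole pooled list the ratio of summits to flanks was 6.43 in place of 11.9, and within 50 bp of the summit it was 4.33.

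The word lay beside the summit and not on it, and nearly always with the same side facing it. Of the 1290 copies of CACTGAGA at bases where an intergenic peak could lie, 216 (16.7%, exact interval 14.7 to 18.9) had an IDR summit within 200 bp, where 1.76% of such bases had one. In 211 of the 216 (97.7%, exact interval 94.7 to 99.2) the summit was on the 3' side of the word as written, at a median of 87 bp, and in 115 it was 51 to 100 bp away on that side. In the lists of replicates 1, 2 and 3 it was on the 3' side in 232 of 240, 188 of 196 and 158 of 169 copies (mean 95.4% ± 1.66, SD, n = 3). Copies in gene bodies, which played no part in finding the word, gave 281 of 296 (94.9%, exact interval 91.8 to 97.1), and copies in promoters 86 of 104 (82.7%, 74.0 to 89.4). Of the 203 intergenic peaks with the word within 200 bp, 13 had 2 or more copies, and 12 lay between copies that faced the summit from both sides.

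**Figure D4:**
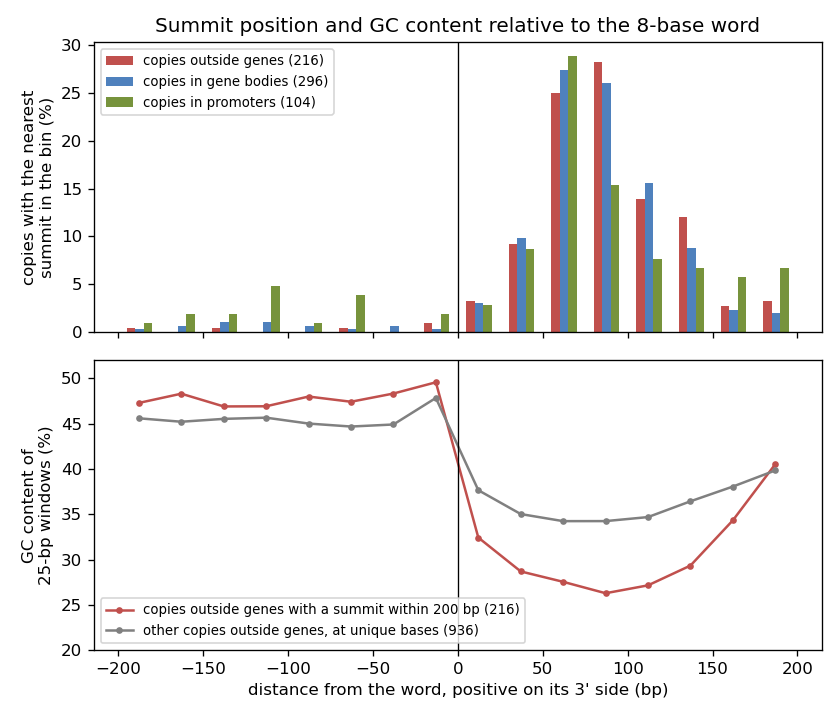
Upper panel, share of the copies of CACTGAGA with an IDR summit within 200 bp (vertical axis, %) by position of that summit relative to the word (horizontal axis, bp, positive on its 3' side), for copies outside genes, in gene bodies and in promoters. Lower panel, GC content of 25-bp windows around copies outside genes with a summit and around other copies there; the first go from 49.6% just before the word to 26.3% at 87 bp after it.

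The same side was the one poor in G and C. Around the 216 copies with a summit, GC content was between 46.9% and 49.6% over the 200 bp before the word, dropped to 32.4% within 25 bp after it, reached 26.3% at 87 bp and came back to 40.5% at 187 bp. Around the 936 other unique copies outside genes it also dropped at the word, from 47.8% to 37.7%, but stayed at 34.2% or more. The word thus stood at the edge of a stretch of DNA rich in A and T, and the stretch was poorer in G and C where a peak was listed. The 216 copies were picked for a summit nearby, and summits in general lay in DNA poor in G and C. Their deeper trough is therefore not independent of that choice. Of the 131 intergenic peaks with the word within 100 bp, 82.4% had a dip of at least 10 points, against 70.6% of those without it.

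The bases next to the word were also biased. At the copies with an intergenic summit, the base before it was G in 52.8% and A in 38.0%, and the base before that T in 60.2%. After it came A or G (50.5% and 43.5%), followed by A in 86.6%, 89.4% and 81.9% at the next 3 positions. Of the 468 copies outside genes followed by A or G and then AAA, 31.2% had a summit within 200 bp (exact interval 27.0 to 35.6), against 8.52% of the other 822 (6.70 to 10.6). That form was read from the copies at peaks themselves. In gene bodies, from which it was not read, the shares were 27.5% of 673 copies (24.1 to 31.03) and 6.16% of 1803 (5.09 to 7.37).

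Intergenic peaks lay near developmental regulators more densely than near protein-coding genes in general. Each peak was given to its nearest protein-coding start, and 882 of the 13968 protein-coding genes (6.31%) were that start for at least 1. Of 124 regulators in 8 lists of developmental genes, 48 were (38.7%), with 126 peaks. Regulators have long gaps around them, and per Mb of those gaps the density was 122.6 against 44.7 for all protein-coding genes, a ratio of 2.74, and 2.76, 2.84 and 2.70 in the replicates (mean 2.77 ± 0.07, SD, n = 3). Over unique bases the ratio was 2.03. Lists share some genes, and the lists are described here with no test of their own.

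Genes of segmentation had such peaks often. Of 22 pair-rule and segment polarity genes 14 had at least 1 (45 peaks, ratio 2.89, replicates 2.98 ± 0.12), led by the Wnt gene wg and the T-box gene mid with 6 each, slp2 with 4 and the signalling gene hh with 4. Of 15 maternal gradient and gap genes 7 did (ratio 2.24, replicates 2.32 ± 0.07), with 6 at the head gene ems, 4 at knrl and 3 each at oc and kni. Of 24 T-box, GATA and Fork head genes 15 did (ratio 3.58, replicates 3.82 ± 0.30), among them mid, slp2, croc and H15, the last with 4. Hox genes, which set segment identity, had 4 peaks at Dfd and Antp at a ratio of 1.34. The replicates gave 1.83, 0.70 and 1.86, and without Dfd the ratio was 0.482, so that the list had no settled direction. Over unique bases all these ratios were lower. They were 2.13 for pair-rule and segment polarity genes and 1.66 for maternal gradient and gap genes. For T-box, GATA and Fork head genes the value was 2.64, and for Hox genes 0.984.

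In the dorsoventral and Dpp list, 5 of 14 genes had 14 peaks in 50.4 kb (ratio 6.21, replicates 5.56 ± 0.11). The homeodomain gene tup held 8 of them, and without it the ratio was 5.20. The ligand gene dpp had 3, and sim, zen and pnr 1 each. Of 20 mesoderm and heart regulators 8 had peaks (ratio 2.66, replicates 2.43 ± 0.16), with 3 each at Doc2, Doc1, zfh1 and sna. Of 22 neural regulators 7 did (ratio 2.39, replicates 2.53 ± 0.35), with 6 at Dr, 5 at D, 2 at SoxN and 1 at lola. Over unique bases the ratios were 4.57 for the dorsoventral and Dpp list, 1.96 for mesoderm and heart regulators and 1.77 for neural regulators. Of 11 ecdysone response genes only Eip93F had any (2 peaks in the IDR list and 3, 0 and 0 in the replicates), too few to give a direction.

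Intergenic peaks near ribosomal protein genes were few. Of 92 cytosolic ones 4 had an intergenic peak, among them RpS23, RpS4 and RpL40 with 1 each (ratio 0.260, replicates 0.219 ± 0.02), and of 73 mitochondrial ones mRpL21 had 1 (ratio 0.117, replicates 0.156 ± 0.05). As shares of genes, 4.35% and 1.37% stand beside the 6.31% of all protein-coding genes. Both ratios were under 1 in 3 of 3 replicates. Over unique bases they were 0.338 and 0.247, and the mitochondrial value rests on 1 peak. Of 179 chemosensory receptor genes 8 had 21 peaks (ratio 0.785), with 8 at Gr93a, 3 at Or65a and 2 each at Gr93d and Ir67b, and without Gr93a the ratio was 0.493. Of 70 Cpr cuticle protein genes 8 had 11 peaks (ratio 1.80, replicates 1.38 ± 0.14), with 4 at Cpr100A and 1 each at Cpr65Eb, Cpr76Ba and Cpr67Fb among them. Over unique bases the ratio was 0.629 for the chemosensory receptor genes and 1.32 for the Cpr genes.

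The count by nearest start missed most of the peaks beside the Polycomb and trithorax group genes. Only 2 of 25 genes in that list, ph-d and Su(z)2, were the nearest start of a peak (1 each, ratio 1.63, replicates 1.97 ± 0.66). Over unique bases the ratio was 1.20. By contrast, 7 intergenic peaks lay in gaps with a gene of the list at an end. Of these, 3 were among the 100 strongest of all 9789 peaks, the ones described in the gaps beside Su(z)2 and Psc. In all, 9 of the 1724 intergenic peaks were among those 100. Counted by gap in the same way, the other lists had from 0 to 53 peaks (53 for pair-rule and segment polarity genes), with 0 among the 100 strongest. The share of bases in such gaps is not set beside these counts, so they are not densities. The strong peaks beside Psc were closer to the start of CG13321 at the far end of the gap. The strong peak beside Su(z)2 was likewise closer to the start of CG13323. None of the 18 insulator and architectural protein genes was the nearest start of a peak, but their gaps came to only 0.436 kb, too little to show a difference.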

How the data were processed

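Per the labels, peaks were on build dm6. The authors deposited 1 list per replicate, a pooled list and an IDR list (irreproducible discovery rate, a measure of how ranks repeat). The deposited signal value is the caller's enrichment, and whether it is scaled by depth is not recorded. The deposited −log10 q was at its ceiling throughout the IDR list, so peaks were ranked by signal. Peak caller, aligner, IDR threshold and read depth: not given in the sources used here. Except for the IDR list, each list ends at 30000 peaks. All peak ends lay within the RefSeq chromosome lengths, and 23 peaks of replicate 3 off the main chromosomes were left out.

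Values come from the IDR list, and their spread from the 9789 strongest peaks of each replicate. Regions are not replicates, so the exact sign-flip test ran over the 3 replicates. Intervals are exact (Clopper-Pearson, 95%) and, like the limits for 0 counts (3 counts), cover counting error only. Densities are per Mb of bases the rule could keep. Named were the 25 strongest members, the 12 gaps with the most members, up to 4 genes per list (all where 5 or fewer had a member) and the farthest member; 1 gene that this rule names is not reported here. In the 14 gene lists, 1 symbol could not be resolved. Members, lists and words were chosen with earlier results of these data known. Alternatives were other promoter limits, windows, gene sets and lists, and leaving out each replicate. Scripts used SciPy 1.17.1, Python 3.11.15, matplotlib 3.10.9, pandas 2.3.3 and NumPy 2.4.6 and were tested on simulated data.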

Additional observations from a re-analysis of the deposited data

How the results depend on the processing

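Of 350 alternatives, 336 kept the direction of the main value. Some of these could hardly turn. The share of peaks with a GC dip is a percentage and has no other direction, and CACTGAGA was picked for its high ratio in these same peaks. Since the test over 3 replicates cannot pass a threshold, the tally speaks for direction and not for significance. Of the 14 that turned, 11 were among the 15 words: the Zelda word (0.977 in peaks strong in all replicates, 0.970 in windows of 25 bp, 1 with promoters of 250 bp, 0.960 with protein-coding genes alone, 0.894 to 1.04 without 1 replicate), CGATA (1 at 25 bp), GTCACACT (1.43 in the main setting, 0.8 at 25 bp, 0.667 with promoters of 250 bp) and GAGAGAGA (1.07 without replicate 1, 1 with promoters of 1000 bp). The other 3 concerned recovery (-5.41 to 1.95 points without 1 replicate, main -2.12) and closeness to each other, which was 0.983 points, -3.29 within 10000 bp and -5.26 with promoters of 1000 bp. Closeness ran from 0.636 to 7.82 in its other alternatives, recovery was -0.005 in the stronger 50% of the list, and the cause was not tested. Among the 15 words, 16 of 210 alternatives moved a ratio by over 1.5 times, 6 of them in the whole pooled list. Outside the words, 26 of 140 alternatives moved a value by over 1.5 times, those named in the text among them. The share of intergenic peaks with a GC dip was 47.2% in the whole pooled list, 76.0% in the stronger 50%, 79.6% and 58.1% for dips of 5 and 15 points, and 54.8% with flanks at 1000 bp. No paired analysis was possible because there is 1 group. Depth is unknown, and no list shows absence of the protein.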
